A study of Mus musculus with 19 samples.

Results

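Albumin and 9 other genes of secreted or surface hepatocyte proteins (*Alb*, *Ttr*, *Ahsg*, *Fetub*, *Gc*, *Afm*, *Azgp1*, *Ambp*, *Asgr1* and *Asgr2*) were followed through 19 mouse liver libraries. They were taken by name, are 10 of the 31053 genes listed in the count table, and all 10 were counted in every library. RNA came from whole livers of male C57BL/6 mice (strain label C57BL6J) given as 6 to 8 weeks old. Vehicle mice (n = 5 libraries) are labelled as treated with PBS and nothing else. The other mice received increasing doses of thioacetamide (TAA), a hepatotoxin that induces liver fibrosis, for 12 weeks, were injected with vector at week 10 and were sacrificed 4 weeks after the injection. The age of 6 to 8 weeks cannot be their age at sampling, because dosing alone lasted 12 weeks. AAV-GFP-injected mice (n = 7 libraries) received AAV8 TBG eGFP, and AAV-miR-34b/c-injected mice (n = 7 libraries) received AAV8 TBG miR-34b together with AAV8 TBG miR-34c. TBG is the thyroxine-binding globulin promoter, which restricts expression from the vector to hepatocytes, and AAV8 reaches mostly pericentral hepatocytes in mice. TAA and vector were given together, so their parts in a difference from vehicle cannot be told apart, and no group with TAA alone or with a single miRNA is analysed here. The injected groups share TAA, capsid and promoter, and differ in the miRNA pair, in eGFP and in the number of vectors given.

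Hepatocytes make most of the protein of blood plasma. Albumin is its main carrier of fatty acids, hormones and drugs, and mRNA for albumin, transthyretin and fetuin-A is among the most abundant in liver, held there by transcription factors such as HNF4 and the C/EBP family. In an acute phase response, cytokine signals raise one set of plasma proteins, such as serum amyloid A and orosomucoid, while albumin, transthyretin and fetuin-A are known as negative acute phase proteins. The asialoglycoprotein receptor, built from the products of *Asgr1* and *Asgr2*, sits on the hepatocyte surface and takes desialylated glycoproteins back out of plasma.

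The *Alb* and *Afm* genes lie in the same stretch of chromosome 5 (GRCm38), *Alb* at chr5:90460897-90476602 and *Afm* at chr5:90518932-90553543, both on the plus strand, and *Gc* lies on the same chromosome on the minus strand at chr5:89417522-89457898. The fetuin genes lie near each other, *Ahsg* at chr16:22891277-22899449 and *Fetub* at chr16:22918334-22939778, and so do the receptor genes, *Asgr1* at chr11:70054085-70057894 and *Asgr2* at chr11:70092644-70106187. *Ambp* lies at chr4:63143275-63154799 on the minus strand, *Azgp1* at chr5:137981520-137990233 and *Ttr* at chr18:20665280-20674321. All 10 are annotated as protein coding.

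Promoters are shown for 3 of the genes, because *Ambp* and *Afm* were the members that passed the test in a comparison below and *Alb*, the most abundant, did not. Each line holds the 250 bases before the start site that RefSeq gives on GRCm38.p6, 5′ to 3′ on the strand of the gene, at chr5:90460620-90460869 (plus) for *Alb*, chr5:90518699-90518948 (plus) for *Afm* and chr4:63154173-63154422 (minus) for *Ambp*. The *Ambp* stretch lies inside the GENCODE interval given above, which begins further upstream, at chr4:63154799 on the minus strand. Its motif positions hold for the RefSeq start only. Capitals mark matches on either strand to any of the 5 short motifs searched.

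Alb: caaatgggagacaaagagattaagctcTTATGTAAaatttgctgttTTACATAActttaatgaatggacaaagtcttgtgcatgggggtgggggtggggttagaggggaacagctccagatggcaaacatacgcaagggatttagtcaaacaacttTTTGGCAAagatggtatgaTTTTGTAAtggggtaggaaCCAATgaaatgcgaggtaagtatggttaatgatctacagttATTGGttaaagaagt

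Afm: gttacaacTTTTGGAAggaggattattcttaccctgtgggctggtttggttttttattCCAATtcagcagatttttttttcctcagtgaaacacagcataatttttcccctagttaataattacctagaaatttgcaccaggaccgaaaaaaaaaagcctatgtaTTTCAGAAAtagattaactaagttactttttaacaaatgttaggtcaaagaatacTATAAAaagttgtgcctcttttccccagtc

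Ambp: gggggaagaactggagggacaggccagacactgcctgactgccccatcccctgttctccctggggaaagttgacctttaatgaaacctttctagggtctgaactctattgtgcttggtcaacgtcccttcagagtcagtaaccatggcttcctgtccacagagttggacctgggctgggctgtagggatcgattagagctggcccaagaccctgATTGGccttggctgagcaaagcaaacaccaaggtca

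The motifs were TTNNGNAA (C/EBP and PAR bZIP factors), CAAAGTCC (HNF4), TTCNNNGAA (STAT factors), CCAAT and TATAAA. They were searched on both strands from 250 bases before to 50 after the start, in 9 of the 10 genes. *Ttr* was left out of the search. *Alb* held 4 matches to TTNNGNAA and 2 to CCAAT. *Afm* held 4 matches to TTNNGNAA, of which 2 overlap in the run TTTCAGAAA, and TATAAA 30 bases before the start. *Ambp* held a CCAAT match, 36 bases before the start on the reverse strand, and none of the other 4 motifs. The 9 genes hold 11 promoters, since *Asgr1* and *Fetub* have 2 each. TTNNGNAA occurred in 7 of the 11 promoters, against 40.7% of all 32851 promoters of that length, CAAAGTCC in 2 (of *Asgr1* and *Asgr2*) against 1.42%, TTCNNNGAA in 2 (both of *Asgr1*) against 8.30%, CCAAT in 9 against 37.4% and TATAAA in 2 (of *Afm* and *Fetub*) against 13.6%. A match is a description of the letters and not a bound site.

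The libraries held 2214073 to 5208405 counts. Levels are given as CPM (counts scaled to a library of 1e6) after trimmed-mean scaling of the library sizes; the kit counts 3′ ends, about one fragment per transcript, so levels were not divided by gene length. Mitochondrial genes took 3.71% to 10.8% of the counts and set libraries apart within the injected groups: AAV-miR-34b/c replicates 1 and 2 were at 3.71% and 3.73%, like most vehicle libraries, and the other 5 at 8.21% to 10.8%, while AAV-GFP replicates 5 to 7 were at 4.83% to 5.50% and replicates 1 to 4 at 7.85% to 9.41%. All vehicle libraries were under 7%. Values without AAV-miR-34b/c replicates 1 and 2 are given beside many results of that group, though not beside all that they alter. In addition, 6 pairs of libraries within a group were closer to each other than the other 46 pairs (coefficient of variation beyond counting noise 0.0812 to 0.171, against 0.215 to 0.480), and the labels do not say whether they share an animal or a preparation. The liver label held: the 10 hepatocyte markers (such as *Cps1* and *Cyp2e1*) summed to 20141 CPM or more in every library.

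Together the 10 genes took 4.76% to 8.23% of a library. *Alb* accounted for 53.7% of their counts, *Ahsg* for 15.8%, *Ttr* for 13.9%, *Ambp* for 5.78%, *Gc* for 4.86%, *Asgr1* for 2.49%, *Azgp1* for 2.44%, *Fetub* for 0.663%, *Afm* for 0.242% and *Asgr2* for 0.161%. The order by median level over all libraries ran from *Alb* (36232 CPM) through *Ahsg* (11293 CPM), *Ttr* (9115 CPM), *Gc* (3345 CPM) and *Ambp* (3311 CPM) to *Asgr1* (1714 CPM) and *Azgp1* (1673 CPM), then *Fetub* (428 CPM), *Afm* (170 CPM) and *Asgr2* (119 CPM). The ranges of *Ahsg* (5347 to 15780 CPM) and *Ttr* (8015 to 13342 CPM) overlapped, as did those of *Gc* and *Ambp*, of *Asgr1* and *Azgp1*, and of *Afm* and *Asgr2*. The highest library exceeded the lowest by 4.08-fold for *Ambp*, the widest range of the 10, and by 1.66-fold for *Ttr*, the narrowest. The lowest count of any member in any library was 198, for *Asgr2*.

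**Figure D1:**
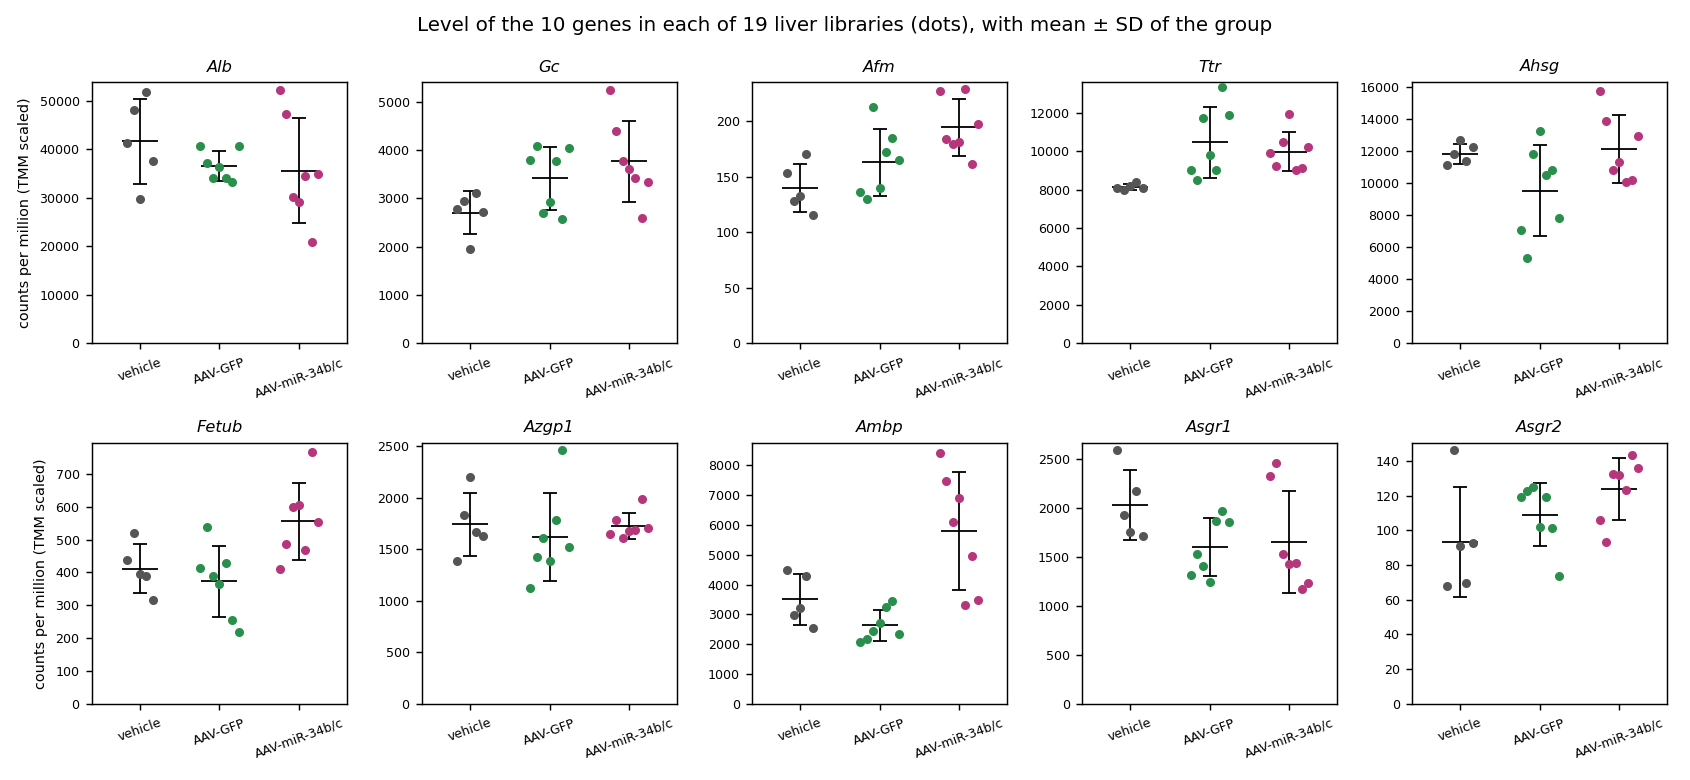
Level of each of the 10 genes, in CPM after trimmed-mean scaling (y axes, from 0), in vehicle (n = 5), AAV-GFP (n = 7) and AAV-miR-34b/c (n = 7) livers. Each dot is a library, the wide bar is the group mean and the whiskers are 1 SD. *Ambp* stands highest in the AAV-miR-34b/c group, where 6 of 7 libraries lie above all AAV-GFP libraries, and the 5 vehicle libraries of *Ttr* lie close together below all injected libraries.

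The comparison of AAV-GFP with vehicle asks what TAA with the control vector does to these transcripts. By edgeR's quasi-likelihood test with Benjamini-Hochberg adjustment over all genes, 0 of the 10 members passed at an adjusted p of 0.05, against 12.7% of the 9522 genes tested. At an unadjusted p of 0.05 edgeR gave 1 member (*Ambp*). Among the other tools DESeq2 called 0, and limma-voom, run with library quality weights throughout, called 1. The median log2 fold change of the 10 was −0.12, and that of all genes tested −0.01. Setting AAV-miR-34b/c livers against AAV-GFP livers asks what the miRNA vectors change relative to the eGFP vector, and 1 of 10 members passed, *Ambp*, which was higher, against 3.36% of the 9252 genes tested in either direction and 1.95% higher; the median was 0.16 for the members and −0.01 for all genes. In AAV-miR-34b/c against vehicle, 2 of 10 passed, *Ambp* and *Afm*, both higher, against 21.9% of 9290 genes in either direction and 12.2% higher, with medians of 0.35 and 0.02. That share of members (2 of 10) is close to the background of that comparison. Each pair of comparisons shares a group, so they are not independent.

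**Figure D2:**
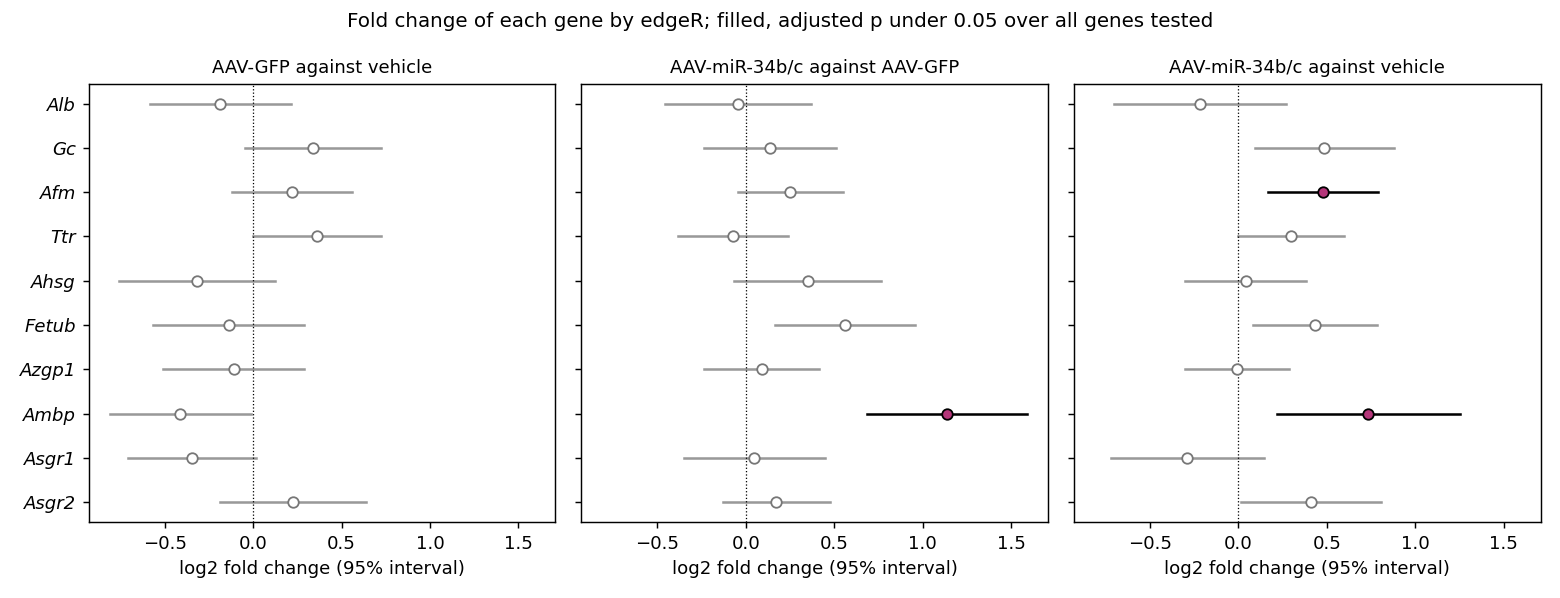
Log2 fold change (x axis) of each gene in each of the 3 comparisons, with 95% intervals from edgeR. Filled points have an adjusted p under 0.05 over all genes tested: *Ambp* at 1.14 in AAV-miR-34b/c against AAV-GFP, and *Afm* at 0.48 and *Ambp* at 0.74 in AAV-miR-34b/c against vehicle. The other intervals that reach across 0 include all 3 of *Alb*.

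Albumin mRNA was not distinguishable between the groups. *Alb* stood at 41274, 48006, 29612, 51700.4 and 37474 CPM in the 5 vehicle livers. Its lowest, median and highest levels were 33188, 36232 and 40711 CPM with AAV-GFP and 20771, 34381 and 52186 CPM with AAV-miR-34b/c. The AAV-GFP libraries lay within the range of vehicle, and the AAV-miR-34b/c libraries held both the highest level (replicate 1) and the lowest (replicate 6) of all 19. The edgeR log2 fold change was −0.18 ± 0.19 (SE; 95% interval −0.58 to 0.21, adjusted p = 0.541) for AAV-GFP against vehicle and −0.04 ± 0.20 (−0.46 to 0.37, adjusted p = 0.955) for AAV-miR-34b/c against AAV-GFP. Against vehicle, the AAV-miR-34b/c value was −0.22 ± 0.23 (−0.71 to 0.27, adjusted p = 0.517). The *Alb* values without AAV-miR-34b/c replicates 1 and 2 were −0.30 against AAV-GFP and −0.48 against vehicle (edgeR adjusted p = 0.309 and 0.0658).

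As a share of all counts, *Alb* took 4.24% ± 0.88 (SD, n = 5) in vehicle livers, 3.9% ± 0.49 (SD, n = 7) with AAV-GFP and 3.26% ± 0.85 (SD, n = 7) with AAV-miR-34b/c. The 2-sided exact permutation p was 0.413 for AAV-GFP against vehicle, 0.111 between the injected groups and 0.0833 when AAV-miR-34b/c was set against vehicle. This share moved with the composition of the library. Without AAV-miR-34b/c replicates 1 and 2 the difference between the injected groups was −0.998 percentage points (exact permutation p = 0.0189), and among the libraries over 7% mitochondrial counts it was −1.16 (exact permutation p = 0.0476). Among those under 7%, with 2 AAV-miR-34b/c and 3 AAV-GFP libraries, it was 0.472, in the other direction. The exact permutation p there was 0.300, and so few libraries cannot give a p below 0.10, so that subset cannot pass the test. Against vehicle the AAV-miR-34b/c difference was −1.34 without the 2 replicates (exact permutation p = 0.0317) and −0.0833 among the libraries under 7%, where the exact permutation p was 1 and 2 libraries stood against 5 (smallest possible p 0.0476). The 19 acute phase genes took 2.70% to 6.56% of the counts with AAV-GFP and 5.75% to 17.0% with AAV-miR-34b/c. With those genes left out of the total, the *Alb* share differed by −0.432 percentage points for AAV-GFP against vehicle, by −0.349 between the injected groups and by −0.781 when vehicle livers were the reference for AAV-miR-34b/c (exact permutation p = 0.326, 0.451 and 0.218).

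**Figure D3:**
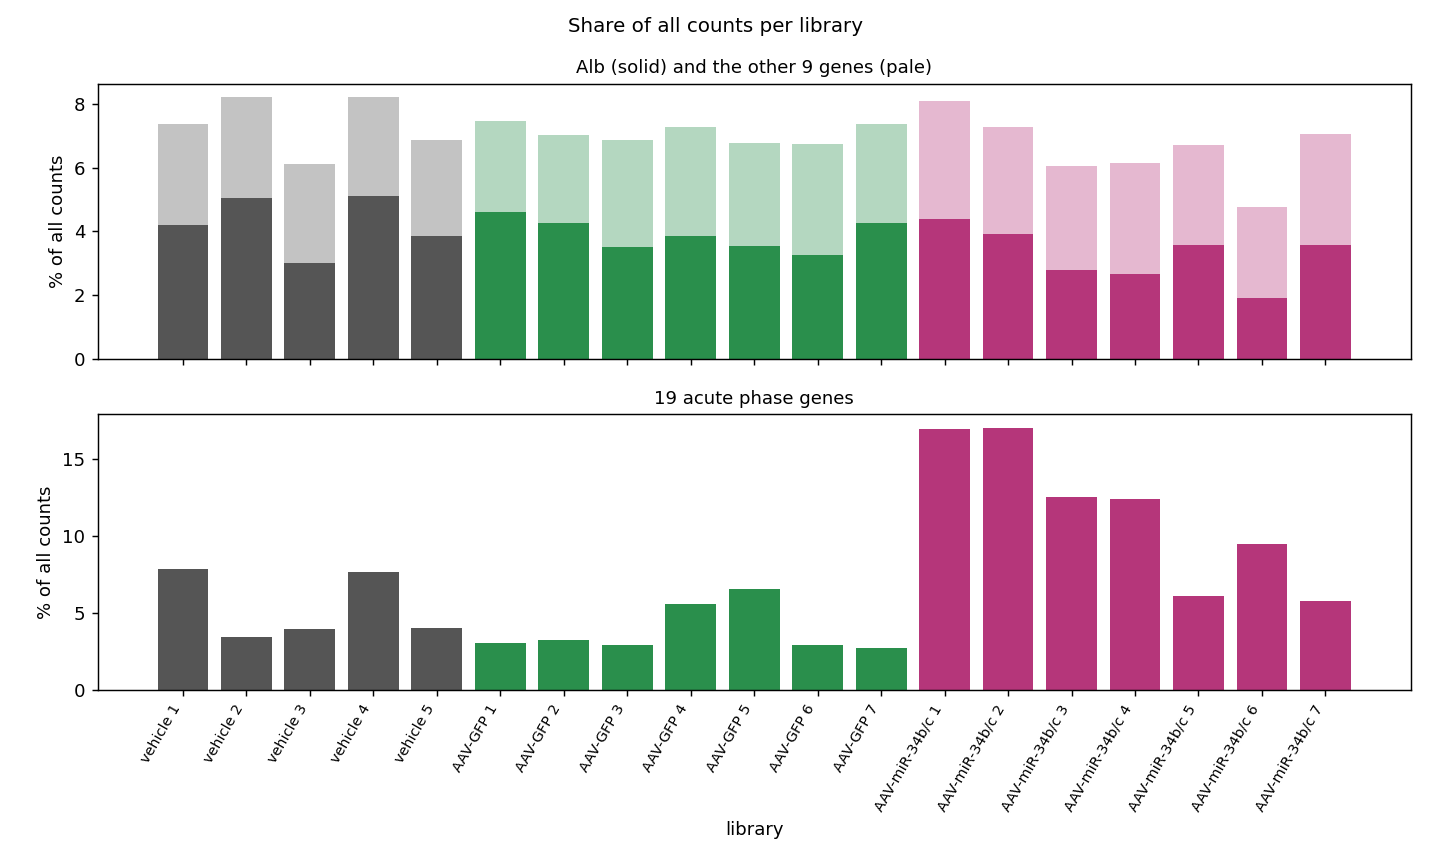
Percent of all counts per library (y axes, from 0; bars are single libraries, grey vehicle, green AAV-GFP, purple AAV-miR-34b/c). Upper panel, *Alb* (solid) and the other 9 genes (pale), together 4.76% to 8.23%; lower panel, the 19 acute phase genes, which reach 17.0% in AAV-miR-34b/c livers.

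The other albumin family members were *Gc*, which encodes the vitamin D-binding protein, and *Afm*, which encodes afamin, a carrier of vitamin E and of Wnt proteins. *Afm* read 153, 128, 133, 170 and 115 CPM in vehicle livers. It ranged from 130 to 212 CPM with AAV-GFP (median 165) and from 161 to 229 CPM with AAV-miR-34b/c (median 184). Of the 7 AAV-miR-34b/c libraries, 6 lay above all vehicle libraries, and the AAV-GFP libraries overlapped both other groups. The edgeR log2 fold change against vehicle was 0.48 ± 0.15 (SE; 95% interval 0.17 to 0.79, adjusted p = 0.0299) with AAV-miR-34b/c, with an exact permutation p of 0.00253 for *Afm* alone, and 0.22 ± 0.16 (adjusted p = 0.381) with AAV-GFP. The injected groups differed by 0.25 ± 0.14 (adjusted p = 0.428), so no difference between them was established. The call was lost when the close pairs were summed (adjusted p = 0.205), with scaling by library size alone (0.105), and among the libraries under 7% mitochondrial counts (edgeR adjusted p = 0.0899), though it held without AAV-miR-34b/c replicates 1 and 2 (0.0229). It was also lost when any one of vehicle replicate 2, 3 or 5 or AAV-miR-34b/c replicate 5 was left out (edgeR adjusted p = 0.0604, 0.0575, 0.0837 and 0.0585). Fitting replicate number as a block ended the call as well.

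*Gc* was at 2780, 2941, 1959, 3118 and 2721 CPM in vehicle livers, at 2568 to 4089 CPM with AAV-GFP (median 3764) and at 2601 to 5239 CPM with AAV-miR-34b/c (median 3615). In the AAV-miR-34b/c group 6 of 7 libraries were above all vehicle libraries, and 4 of 7 were in the AAV-GFP group. Neither difference passed the main edgeR test, at 0.49 ± 0.19 (95% interval 0.10 to 0.88, adjusted p = 0.0681) and 0.34 ± 0.19 (−0.05 to 0.73, adjusted p = 0.227). The highest *Gc* levels were those of AAV-miR-34b/c replicates 1 and 2, and without them the difference from vehicle was 0.31 (edgeR adjusted p = 0.140). The AAV-miR-34b/c difference did pass with DESeq2 (0.49, adjusted p = 0.0386), with limma-voom (0.41, 0.0200), among libraries under 7% mitochondrial counts (0.85, edgeR adjusted p = 0.0120) and without AAV-miR-34b/c replicate 6 (0.57, 0.0344). *Cyp2r1*, the hydroxylase that makes the vitamin D form *Gc* carries, showed −0.15 ± 0.28 and −0.47 ± 0.27 in the same comparisons. *Afp*, the fetal member of the family, was at or below 2.82 CPM in every library and had too few counts to be tested.

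Transthyretin, the plasma carrier of thyroxine and of retinol-binding protein, had the narrowest range of the 10 members in vehicle livers, at 8091, 8015, 8200.1, 8407 and 8104 CPM. With AAV-GFP *Ttr* ranged from 8509 to 13342 CPM (median 9793), and with AAV-miR-34b/c from 9029 to 11959 CPM (median 9927). All 14 injected libraries lay above all 5 vehicle libraries. Such separation of groups was seen for *Ttr* alone of the 10 members in each comparison with vehicle, against 4.79% of all genes for AAV-GFP and 7.92% for AAV-miR-34b/c, and for none of the 10 between the injected groups, against 1.37%. For *Ttr* the exact permutation p was 0.0126 for AAV-GFP and 0.00379 in AAV-miR-34b/c livers set against vehicle. The edgeR values were 0.36 ± 0.17 (SE, adjusted p = 0.170) and 0.30 ± 0.14 (adjusted p = 0.136), which did not pass over all genes. With AAV-miR-34b/c, *Ttr* did pass against vehicle with DESeq2 (0.30, adjusted p = 0.0201), with limma-voom (0.34, 0.0142) and by an exact permutation test over all genes (0.29, 0.0378). Between the injected groups the log2 fold change was −0.07 ± 0.15 (95% interval −0.38 to 0.24, edgeR adjusted p = 0.878). *Rbp4*, which encodes the retinol-binding protein that travels with transthyretin, did not pass in any comparison (0.03 ± 0.20 for AAV-GFP and −0.25 ± 0.14 in AAV-miR-34b/c livers set against vehicle, −0.30 ± 0.16 between the injected groups).

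The fetuins are cystatin-type plasma proteins: *Ahsg* encodes fetuin-A, which keeps calcium phosphate in solution, and *Fetub* encodes fetuin-B, an inhibitor of ovastacin-like proteases. *Ahsg* lay between 11162 and 12675 CPM in the vehicle livers and between 5347 and 13277 CPM with AAV-GFP (median 10529). With AAV-miR-34b/c it lay between 10098 and 15780 CPM (median 11293). In the AAV-GFP group 5 of 7 libraries were below all vehicle libraries and 1 was above, and replicate 2 held the lowest level of all 19. The log2 fold changes by edgeR were −0.32 ± 0.21 (95% interval −0.76 to 0.12, adjusted p = 0.329) for AAV-GFP against vehicle, 0.35 ± 0.20 (−0.06 to 0.77, adjusted p = 0.430) between the injected groups and 0.04 ± 0.16 (−0.30 to 0.38, adjusted p = 0.872) in AAV-miR-34b/c livers set against vehicle. Without AAV-miR-34b/c replicates 1 and 2, *Ahsg* was at 0.20 between the injected groups and −0.10 against vehicle (edgeR adjusted p = 0.587 and 0.619). An antisense gene, Gm30505, overlaps *Ahsg* and another, Gm42109, overlaps *Afm*. Gm30505 had 1 to 11 counts per library, and the effect of the overlap on the *Ahsg* counts was not tested. Gm42109 was not analysed here.

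*Fetub* was at 436, 519, 395, 390.2 and 317 CPM in vehicle livers. It ranged from 219 to 539 CPM with AAV-GFP (median 388) and from 409 to 766 CPM with AAV-miR-34b/c (median 553), where 4 of 7 libraries exceeded all AAV-GFP libraries. The difference between the injected groups was 0.56 ± 0.19 (SE; 95% interval 0.16 to 0.96) and did not pass over all genes (edgeR adjusted p = 0.125), with an exact permutation p of 0.00932 for this gene alone. Without AAV-miR-34b/c replicates 1 and 2 it was 0.66 and passed (edgeR adjusted p = 0.0478). Against vehicle the AAV-miR-34b/c value was 0.43 ± 0.17 (edgeR adjusted p = 0.0712), and 0.53 without those replicates (0.0106). The log2 ratio of *Ahsg* to *Fetub* counts was 4.86 ± 0.30 (SD, n = 5) in vehicle, 4.67 ± 0.74 (SD, n = 7) with AAV-GFP and 4.46 ± 0.50 (SD, n = 7) with AAV-miR-34b/c, with exact permutation p of 0.626, 0.545 and 0.136 for AAV-GFP against vehicle, between the injected groups, and in AAV-miR-34b/c livers set against vehicle. Without AAV-miR-34b/c replicates 1 and 2 the last difference was −0.64 (exact permutation p = 0.0159), and among libraries under 7% mitochondrial counts it was 0.19 (exact permutation p = 0.619, with 2 libraries against 5).

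*Azgp1* encodes zinc-alpha-2-glycoprotein, a plasma protein with a class I MHC fold that is linked to lipid mobilisation. It read 1384, 1834, 2207, 1673 and 1626 CPM in vehicle livers, 1128 to 2466 CPM with AAV-GFP (median 1528) and 1609 to 1986 CPM with AAV-miR-34b/c (median 1689). The AAV-miR-34b/c libraries all lay inside the range of either other group. Its log2 fold change was −0.11 ± 0.19 for AAV-GFP against vehicle, 0.09 ± 0.15 between the injected groups and −0.01 ± 0.14 in AAV-miR-34b/c livers set against vehicle (95% interval of the last −0.30 to 0.29; edgeR adjusted p 0.737, 0.854 and 0.974).

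*Ambp* was the member that passed the test between the injected groups. It encodes a precursor that is cut into alpha-1-microglobulin, a scavenger of heme and radicals, and bikunin, the light chain of the inter-alpha-trypsin inhibitors. Vehicle livers stood at 4488, 2972, 3216, 4275 and 2557 CPM. The 7 AAV-GFP livers stood at 2064, 2167, 2438, 2719, 3233, 3451 and 2343 CPM. The 7 AAV-miR-34b/c livers stood at 8430.4, 7492, 6103, 6898, 3311, 4952 and 3476 CPM, in replicate order in each case. All but replicate 5 of the AAV-miR-34b/c livers were above every AAV-GFP liver, and 5 of 7 were above every vehicle liver, while 4 of 7 AAV-GFP livers were below every vehicle liver.

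*Ambp* was 2.2-fold higher in AAV-miR-34b/c than in AAV-GFP livers (5809 ± 1975 against 2631 ± 532 CPM, SD, n = 7 each), a log2 fold change of 1.14 ± 0.21 (SE; 95% interval 0.69 to 1.59, edgeR adjusted p = 0.00477). The exact permutation p for this gene alone was 0.00117, where the smallest possible is 0.000583. It passed in each of the 14 fits that left out a library (1.02 to 1.24), without AAV-miR-34b/c replicates 1 and 2 (0.89, edgeR adjusted p = 0.0131), among libraries over 7% mitochondrial counts (1.06, 0.00719) and among those under 7% (1.42, 0.00437). It did not pass with the close pairs summed (1.06, edgeR adjusted p = 0.0565), with replicate number as a block (edgeR adjusted p = 0.0622) or by an exact permutation test over all genes (1.08, adjusted p = 0.0580). Against vehicle it was 0.74 ± 0.25 (95% interval 0.22 to 1.25, edgeR adjusted p = 0.0410) with AAV-miR-34b/c and −0.41 ± 0.19 (−0.81 to −0.01, adjusted p = 0.154) with AAV-GFP. The AAV-miR-34b/c call against vehicle held in 4 of 12 fits that left out a library, being lost without any of vehicle replicates 2 to 5 or AAV-miR-34b/c replicates 1 to 4 (edgeR adjusted p up to 0.103). It was also lost without AAV-miR-34b/c replicates 1 and 2 together (0.49, edgeR adjusted p = 0.0786), with the close pairs summed (0.171), by the exact permutation test over all genes (0.120) and with scaling by library size alone (0.0563).

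The heavy chains that bikunin is joined to are encoded by *Itih1*, *Itih2* and *Itih3*. *Itih3* ranged from 283 to 901 CPM with AAV-GFP (median 586) and from 1245 to 3195 CPM with AAV-miR-34b/c (median 2459), with no overlap, and rose by 1.84 ± 0.25 on the log2 scale (edgeR adjusted p = 0.000365). *Itih1* (0.28 ± 0.15, edgeR adjusted p = 0.414) and *Itih2* (0.00 ± 0.16, adjusted p = 0.996) did not pass between the injected groups. Against vehicle, AAV-miR-34b/c livers were higher in *Itih3* (1.42 ± 0.26, edgeR adjusted p = 0.00195) and *Itih1* (0.49 ± 0.13, adjusted p = 0.0159), but the difference in *Itih2* (0.26 ± 0.16, adjusted p = 0.244) did not pass. *Itih3* without AAV-miR-34b/c replicates 1 and 2 was 1.63 higher than with AAV-GFP and 1.21 higher than in vehicle (edgeR adjusted p = 0.000972 and 0.000857). Of the 8 partners listed for the members, 1 passed between the injected groups and 2 in AAV-miR-34b/c against vehicle, all higher, and 0 in AAV-GFP against vehicle. Beside these, 3.36%, 21.9% and 12.7% of all genes tested passed, so 2 of 8 is close to the background of its comparison. *Fcgrt* did not pass against vehicle with all libraries, and was called higher there with AAV-miR-34b/c replicates 1 and 2 left out (0.43 ± 0.16, edgeR adjusted p = 0.0447). The partners that passed in no comparison of all libraries were *Itih2*, *Rbp4*, *Cyp2r1*, *Fcgrt* and *B2m*, whose products form the receptor that recycles albumin, and *St6gal1*, which adds the sialic acid that shields glycoproteins from the asialoglycoprotein receptor.

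**Figure D4:**
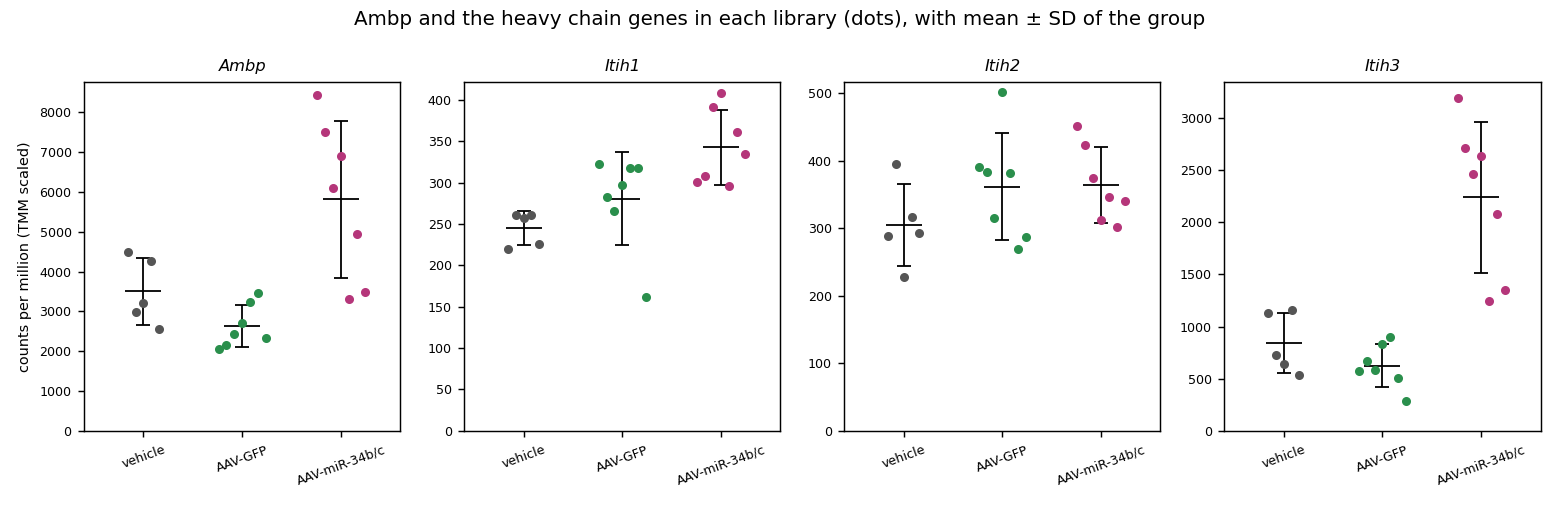
*Ambp* and the heavy chain genes *Itih1*, *Itih2* and *Itih3* in CPM after trimmed-mean scaling (y axes, from 0), by group, with each library as a dot and mean ± SD. *Ambp* and *Itih3* are higher in AAV-miR-34b/c than in AAV-GFP livers (log2 fold change 1.14 and 1.84); the groups do not overlap for *Itih3*, and for *Ambp* 1 AAV-miR-34b/c library lies within the AAV-GFP range.

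Other genes moved with *Ambp* in the same livers. Of the 19 acute phase genes, 17 rose in AAV-miR-34b/c against AAV-GFP (median of the list 1.85), among them *Saa1* (4.03 ± 0.87), *Saa2* (4.61 ± 1.04), *Orm2* (5.25 ± 0.88), *Lcn2* (4.06 ± 0.85), *Hp* (1.56 ± 0.35) and *Fgb* (1.35 ± 0.21). Of the neutrophil markers 3 of 5 could be tested and all 3 rose (*S100a8* by 4.36 ± 0.75 and *S100a9* by 4.31 ± 0.80), and the summed level of the list was 13.1 to 71.9 CPM with AAV-GFP and 59.9 to 1904 CPM with AAV-miR-34b/c. In AAV-GFP against vehicle 2 of the 5 could be tested, so 1 of the 3 passed the count filter only with AAV-miR-34b/c libraries. The rise of that marker is not separate support. In the same livers, replicates 1 to 4 of the AAV-miR-34b/c group had acute phase shares of 12.4% to 17.0% and *Ambp* levels of 6103 CPM or more, and replicates 5 and 7 had shares of 6.06% and 5.75% and the lowest *Ambp* levels of the group. Without replicates 1 and 2, 16 of the 19 acute phase genes were called higher than with AAV-GFP (median 1.44) and 10 higher than in vehicle (median 0.94), and all 3 tested neutrophil markers were called higher than with AAV-GFP. Those fits called 7.54% of all genes tested against AAV-GFP and 42.6% against vehicle, in either direction. The differences from AAV-GFP were then 2.69 for *S100a8*, 2.47 for *S100a9*, 3.29 for *Saa1*, 4.09 for *Saa2*, 4.51 for *Orm2*, 3.56 for *Lcn2*, 1.07 for *Hp* and 1.21 for *Fgb*. Of 10 macrophage markers, *C1qb* (0.94 ± 0.19) and *Cd5l* (0.86 ± 0.17) were higher and *Gpnmb* (−1.37 ± 0.30) was lower than with AAV-GFP, and the summed level of the list was 381 to 623 CPM with AAV-GFP and 525 to 824 CPM with AAV-miR-34b/c. *Lyve1* (1.06 ± 0.17) was higher among 6 tested endothelial markers, and the cholangiocyte markers *Sox9* (0.49 ± 0.29) and *Spp1* (−0.67 ± 0.25) and the 1 tested marker of T, B and plasma cells did not pass. Without AAV-miR-34b/c replicates 1 and 2, the endothelial marker *Oit3* was called lower than with AAV-GFP (−1.07 ± 0.22) and than in vehicle (−1.28 ± 0.20). The plasma cell marker *Igkc* was then called higher than in vehicle (0.83 ± 0.29). Set against vehicle, 4 macrophage markers passed with AAV-GFP (1 higher, 3 lower) and 2 with AAV-miR-34b/c (1 higher, 1 lower), and of the cholangiocyte markers *Spp1* was higher with AAV-GFP (1.31 ± 0.29) and *Sox9* with AAV-miR-34b/c (1.4 ± 0.27). Also higher with AAV-miR-34b/c than in vehicle were *Retnlg* (4.47 ± 0.87), *S100a8* (4.06 ± 0.92), *S100a9* (3.87 ± 0.89) and *Lyve1* (1.46 ± 0.17). Without AAV-miR-34b/c replicates 1 and 2, *S100a8* was 2.38 and *S100a9* 2.02 above vehicle, and 0 macrophage markers were called higher and 2 lower. The part of these genes, or of the cells they mark, in the *Ambp* difference was not tested. Against vehicle, 5 of the 19 acute phase genes fell in AAV-GFP livers (*Apcs*, *Orm1*, *Orm2*, *Orm3* and *Saa4*; median −0.52) and 12 rose in AAV-miR-34b/c livers (median 1.3). With all libraries, 12.7% and 21.9% of all genes tested passed in these 2 comparisons, and 3.36% between the injected groups.

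No call was made beside this rise for the known negative acute phase genes among the members: between the injected groups *Alb* was at −0.04 ± 0.20, *Ttr* at −0.07 ± 0.15 and *Ahsg* at 0.35 ± 0.20, and none passed the edgeR test (adjusted p 0.955, 0.878 and 0.430). In whole liver RNA, fewer hepatocytes and less mRNA per hepatocyte cannot be told apart. Of 10 hepatocyte markers, 0 passed between the injected groups, 1 fell in AAV-GFP livers against vehicle (*Ttc36*, −0.48 ± 0.15), and 3 fell in AAV-miR-34b/c livers against vehicle (among them *Cps1*, −0.90 ± 0.20, and *Cyp2e1*, −0.63 ± 0.14). In these comparisons 3.36%, 12.7% and 21.9% of all genes tested passed in either direction. With AAV-miR-34b/c replicates 1 and 2 left out, 2 hepatocyte markers were called lower than with AAV-GFP and 5 lower than in vehicle, where those fits called 7.54% and 42.6% of all genes in either direction. Of the 10 stellate cell and myofibroblast markers 8 were tested in AAV-GFP against vehicle, where *Col1a1* (2.42 ± 0.36), *Col1a2* (1.07 ± 0.30) and *Pdgfrb* (1.94 ± 0.52) were higher and *Rgs5* (−0.67 ± 0.21) was lower. Between the injected groups 6 were tested, and *Col1a1* (−1.92 ± 0.29) and *Col3a1* (−1.46 ± 0.26) were lower. In AAV-miR-34b/c livers set against vehicle, 0 of 6 passed by edgeR, and 0 had an unadjusted p under 0.05; with replicates 1 and 2 left out, *Col3a1* (−1.12 ± 0.32) and *Rgs5* (−0.98 ± 0.23) were called lower than in vehicle.

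The asialoglycoprotein receptor genes tended to opposite levels across the libraries, and neither differed between groups by the main edgeR test. *Asgr1* (major subunit) was at 2594, 1929.7, 1758, 2178 and 1714 CPM in vehicle livers, 1251 to 1977 CPM with AAV-GFP (median 1529.9) and 1174 to 2465 CPM with AAV-miR-34b/c (median 1436). *Asgr2* (minor subunit) was at 67.9, 146, 91.1, 69.4 and 92.5 CPM in vehicle livers, 73.6 to 125 CPM with AAV-GFP (median 119) and 93.5 to 144 CPM with AAV-miR-34b/c (median 132). In the AAV-miR-34b/c group replicates 1 and 2 held the highest *Asgr1* and the lowest *Asgr2* levels. By the main edgeR test no comparison passed for either gene: *Asgr1* was at −0.35 ± 0.17 (adjusted p = 0.189) for AAV-GFP against vehicle, 0.05 ± 0.19 (adjusted p = 0.948) between the injected groups and −0.29 ± 0.21 (adjusted p = 0.326) in AAV-miR-34b/c livers set against vehicle, and *Asgr2* was at 0.23 ± 0.20, 0.17 ± 0.15 and 0.41 ± 0.19 (adjusted p 0.457, 0.646 and 0.121). *Asgr1* was called lower in AAV-GFP against vehicle with limma-voom and with replicate number as a block. In AAV-miR-34b/c against vehicle each gene passed in 2 of 14 other settings, and *Asgr2* in 1 of 12 fits that left out a library. Without AAV-miR-34b/c replicates 1 and 2, *Asgr1* was at −0.25 between the injected groups (edgeR adjusted p = 0.360).

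Per library, the log2 ratio of *Asgr1* to *Asgr2* counts was 5.25, 3.72, 4.27, 4.97 and 4.21 in vehicle livers (mean 4.48 ± 0.62, SD, n = 5). It was 3.87 ± 0.45 with AAV-GFP (3.46 to 4.66, SD, n = 7) and 3.70 ± 0.64 with AAV-miR-34b/c (3.03 to 4.72, SD, n = 7). With all libraries none of the differences passed an exact permutation test (−0.61, p = 0.0770 for AAV-GFP and −0.78, p = 0.0657 for AAV-miR-34b/c, each against vehicle; −0.17, p = 0.565 between the injected groups). The AAV-GFP difference from vehicle passed when AAV-GFP replicate 7 or vehicle replicate 2 was left out (−0.74 and −0.80, exact permutation p = 0.0238 and 0.0303). The AAV-miR-34b/c difference passed when AAV-miR-34b/c replicate 1 or 2 or vehicle replicate 2 was left out (−0.91, −0.95 and −0.97, exact permutation p = 0.0411, 0.0260 and 0.0364). The ratio differed with the mitochondrial share of the libraries used: among libraries under 7% the difference from vehicle was −0.18 for AAV-GFP and 0.11 for AAV-miR-34b/c (exact permutation p = 0.661 with 3 libraries against 5 and 0.810 with 2 against 5). Without AAV-miR-34b/c replicates 1 and 2, which both lie under 7%, it was −1.14 against vehicle (exact permutation p = 0.00794) and −0.53 against AAV-GFP (p = 0.0354), and *Asgr1* (−0.58, edgeR adjusted p = 0.00591) and *Asgr2* (0.51, adjusted p = 0.0275) then passed against vehicle. What sets these libraries apart was not tested.

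**Figure D5:**
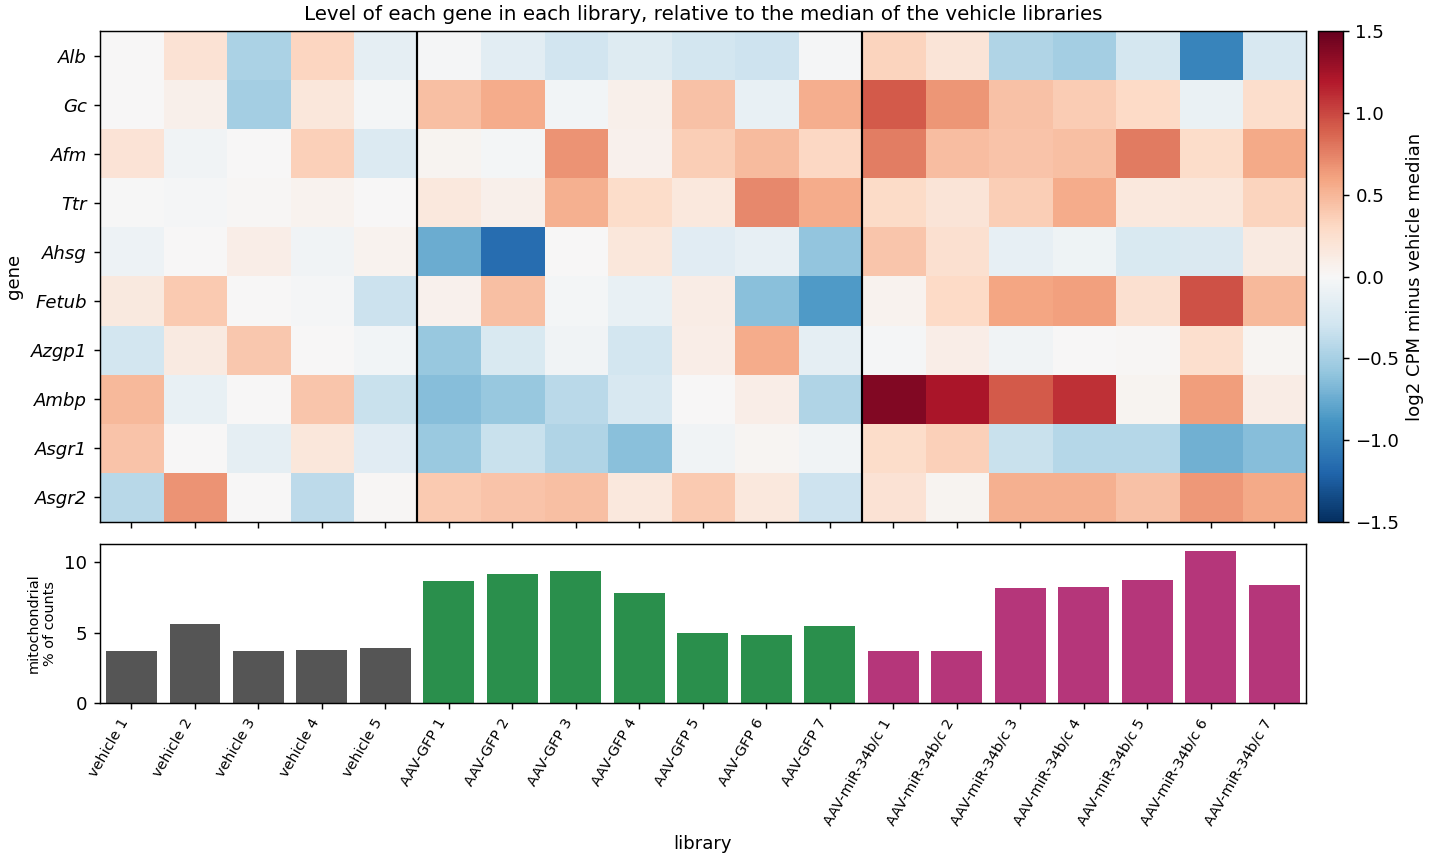
Upper panel, log2 CPM of each gene (rows) in each library (columns) minus the median of the 5 vehicle libraries, from −1.5 (blue) to 1.5 (red), with lines between the groups. Lower panel, percent of counts from mitochondrial genes. AAV-miR-34b/c replicates 1 and 2, at 3.71% and 3.73% mitochondrial counts, are high in *Ambp*, *Gc*, *Alb* and *Asgr1*, and the lowest value is *Ahsg* in AAV-GFP replicate 2.

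The members did not share one pattern. Over the 19 libraries, which differ in group, depth and composition, Pearson's r of log2 CPM was 0.66 between *Alb* and *Asgr1* and −0.65 between *Asgr1* and *Asgr2*, the latter being the lowest of the 45 pairs. Among 5254 genes with a mean count of at least 50, those most like *Alb* were *Sc5d* (r = 0.915), which encodes a desaturase of cholesterol synthesis, *Psmb2* (0.873), a proteasome subunit, *Slc25a5* (0.854), a mitochondrial ADP/ATP carrier, *Marcks* (0.844) and *Hoga1* (0.832). The gene most like *Ambp* was *Serpina10* (0.968), which encodes a plasma inhibitor of coagulation factors, and for *Asgr1* it was *Ppp1ca* (0.945), a phosphatase subunit. For the rest it was *Sec31a* for *Asgr2* (0.910), *Ccar1* for *Fetub* (0.897), *H2-D1* for *Gc* (0.869), *Rpl13* for *Azgp1* (0.862), *Glo1* for *Ttr* (0.854), *Apom* for *Ahsg* (0.795) and *Rpl21* for *Afm* (0.762). No member was the closest match of another.

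Among 20 other plasma protein genes of the liver, 2 passed in AAV-GFP against vehicle (*Kng2*, −0.57 ± 0.18, and *Vtn*, 0.57 ± 0.18). Between the injected groups 5 passed, with *Cpb2* (0.96 ± 0.22), *F2* (0.60 ± 0.16), *Kng1* (0.76 ± 0.19) and *Kng2* (0.90 ± 0.24) of the coagulation and kinin systems higher and *Pon1* (−0.72 ± 0.16), the esterase of high density lipoprotein, lower. In AAV-miR-34b/c against vehicle 6 passed, with *Cpn1* (0.82 ± 0.15), *Plg* (0.61 ± 0.13), *Serpinf2* (0.43 ± 0.13), *Trf* (0.95 ± 0.21) and *Vtn* (0.87 ± 0.14) higher and *Pon1* (−0.47 ± 0.15) lower. Of all genes tested, 12.7%, 3.36% and 21.9% passed in these 3 comparisons, in that order. The counts against vehicle are to be read against those shares. When AAV-miR-34b/c replicates 1 and 2 were left out, *F2*, *Kng1* and *Kng2* did not pass between the injected groups (edgeR adjusted p = 0.0829, 0.0605 and 0.118) and *Cpn2* was called higher (0.68 ± 0.17). Against vehicle, *Serpinc1* (−0.39 ± 0.15) and *Serpind1* (−0.46 ± 0.13) were then called lower. The medians of this list, −0.13, 0.41 and 0.28 in the 3 comparisons, stand beside those of the members, −0.12, 0.16 and 0.35.

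The products of the 15 regulators of liver genes include factors named for the promoter motifs. In AAV-GFP against vehicle 12.7% of all genes tested were called, and 5 of the 15 regulators passed. Among them *Hnf4a* (0.86 ± 0.18), *Onecut1* (1.49 ± 0.46) and *Nfil3* (1.97 ± 0.35), a repressor at PAR bZIP sites, were higher, and *Dbp* (−1.54 ± 0.47), an activator at such sites, was lower. *Hnf4a* (1.21 ± 0.15) and *Nfil3* (2.37 ± 0.41) were also higher in AAV-miR-34b/c livers against vehicle. Between the injected groups 0 of 15 passed, where 3.36% of all genes tested were called. Leaving out AAV-miR-34b/c replicates 1 and 2, 6 of 14 were called against vehicle, where 42.6% of all genes tested were called, and all 6 were higher, among them *Onecut1* (1.5 ± 0.50), *Cebpa* (0.46 ± 0.14) and *Nr5a2* (0.36 ± 0.14). With all libraries, *Cebpa* (0.38 ± 0.13 and 0.30 ± 0.19) did not pass for AAV-GFP or AAV-miR-34b/c against vehicle. *Dbp*, a gene of the circadian output, ranged from 64.5 to 107 CPM in vehicle livers, from 4.67 to 88.7 CPM with AAV-GFP and from 0.789 to 82.9 CPM with AAV-miR-34b/c. The vehicle libraries were close to each other, and the libraries of each injected group spread widely. The hour of sampling is not given in the labels, and its part in these values was not tested.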

How the data were processed

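Liver RNA was made into 19 QuantSeq 3′ mRNA libraries, which were sequenced single-end at 100 bp. The authors deposited raw counts per gene; the submitters' processing notes name STAR and mm10, and the versions, the annotation, the use of strand and of molecular identifiers are not given in the sources used here. Counts were tested with edgeR 4.0.16 in R 4.3.3 (trimmed-mean scaling, a minimum count of 10 and total of 15, quasi-likelihood test, 2 groups per fit, Benjamini-Hochberg adjustment over all genes, threshold 0.05), after a check on simulated data. Levels are CPM on sizes scaled over 19 libraries, and log2 levels used a prior count of 2. Single values were compared by 2-sided exact permutation tests, with 0.5 added to counts in ratios. Libraries are labelled biological replicates. The intervals cover the spread between libraries.

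The members, gene lists and tests were chosen with earlier results of these data known. Named genes are all members, genes of the lists, the 5 genes most like *Alb* and the 1 most like each other member; some list genes are not reported here. Alternatives were another filter, scaling (DESeq2 1.42.0 size factors, library size), test (DESeq2, limma 3.58.1 voom with library quality weights, permutation), the 3 groups in 1 fit, close libraries summed (coefficient of variation under 0.2) and each library left out. The splits at 7% mitochondrial counts and the fits without AAV-miR-34b/c replicates 1 and 2 were chosen after seeing the data. Promoters are from RefSeq on GRCm38.p6, and positions from GENCODE on GRCm38.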

Additional observations from a re-analysis of the deposited data

Results flagged for a closer look

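The *Asgr2* level of AAV-GFP replicate 7 stood apart from its group, at 6.21 log2 CPM where the next lowest of the 7 libraries was at 6.67. It was 1 of 39 groups of libraries examined for a single far value, where chance gives about 1.95. The same library had the lowest *Fetub* level of all 19, at 219 CPM.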

How the results depend on the processing

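Over 800 refits of single members, 722 kept direction and side of the threshold, 23 lost a call, 20 gained one and 35 changed sign. The number of members called was 1 with limma-voom and 1 with the replicate block in AAV-GFP against vehicle. Between the injected groups it was 2 with limma-voom and 2 without AAV-miR-34b/c replicates 1 and 2, and 0 by permutation, with close pairs summed and with the replicate block. In AAV-miR-34b/c against vehicle it was 0 with library size only and with close pairs summed, 1 with the replicate block, 4 with DESeq2, 4 without AAV-miR-34b/c replicates 1 and 2, and 7 with limma-voom, and 0 to 3 with a library left out. Of all genes tested, limma-voom called 28.2%, 8.79% and 41.3% in the 3 comparisons, and the replicate block 32.9%, 1.53% and 10.2%. The fits without AAV-miR-34b/c replicates 1 and 2 called 7.54% between the injected groups and 42.6% against vehicle. In AAV-miR-34b/c against vehicle DESeq2 called 2374 of 16259 genes (14.6%). That total was taken without the filter on low counts that left 9290 genes for edgeR, so this share is not comparable with the others. The counts of members are to be read against the shares of the same fits.

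Replicate numbers are shared across groups, and the labels do not say whether same numbers pair mice. Same-numbered libraries correlated at −0.446 to 0.462, which cannot decide whether they are paired. With the replicate block 3136, 142 and 945 genes were called in the 3 comparisons, against 1212, 311 and 2037 without it. Under the replicate block *Ambp* between the injected groups was 1.08 (edgeR adjusted p = 0.0622) and *Afm* in AAV-miR-34b/c against vehicle was 0.53 (0.0732), and both calls were lost. Other counts that moved by over 1.5 times were 2687, 813 and 3839 with limma-voom, 227, 87 and 331 with close pairs summed, 282, 127 and 1227 by permutation, 180 (AAV-GFP against vehicle) and 642 (AAV-miR-34b/c against vehicle) under 7% mitochondrial counts, 720.0 between the injected groups and 3878 against vehicle without AAV-miR-34b/c replicates 1 and 2, and, between the injected groups, 574 with DESeq2, 614 over 7% mitochondrial counts and 624 with library size only. Without 1 library the count in AAV-GFP against vehicle was 728 (vehicle replicate 1), 689 (vehicle replicate 4), 806 (AAV-GFP replicate 3) and 1859 (AAV-GFP replicate 6), and in AAV-miR-34b/c against vehicle 1328 (vehicle replicate 1) and 1267 (vehicle replicate 4). Library size only lowered the median of all genes to −0.20 between the injected groups (119 genes higher and 505 lower, against 180 and 131) and to −0.13 for AAV-miR-34b/c against vehicle (730.0 higher and 1616 lower, against 1131 and 906).

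Signs changed as follows. With library size only, *Gc* was −0.0794, *Azgp1* −0.0905, *Asgr1* −0.17 and *Asgr2* −0.0117 between the injected groups and *Ahsg* −0.11 in AAV-miR-34b/c against vehicle. With limma-voom, *Ttr* was 0.032 and *Asgr1* −0.0613 between the injected groups, and *Ahsg* −0.0449 and *Azgp1* 0.0117 in AAV-miR-34b/c against vehicle. *Azgp1* was also 0.0095 with at least 10 counts in every library and 0.0064 by permutation there. *Fetub* was 0.0653 with the replicate block in AAV-GFP against vehicle, and *Asgr1* −0.0299 with close pairs summed between the injected groups. Under 7% mitochondrial counts, *Alb* was 0.49 and *Azgp1* −0.15 between the injected groups, *Alb* 0.27 and *Asgr1* 0.25 in AAV-miR-34b/c against vehicle, and *Azgp1* 0.15 in AAV-GFP against vehicle; over 7%, *Ttr* was 0.0432, *Gc* −0.0286 and *Asgr1* −0.0301 between the injected groups. Without AAV-miR-34b/c replicates 1 and 2, *Gc* was −0.0415 and *Asgr1* −0.25 between the injected groups and *Ahsg* −0.10 against vehicle. With a library left out, *Alb* ran from −0.17 to 0.0577 and *Asgr1* from −0.0759 to 0.12 between the injected groups, and *Ahsg* from −0.0344 to 0.0894 and *Azgp1* from −0.0784 to 0.0895 in AAV-miR-34b/c against vehicle.

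The *Alb* share difference between the injected groups was 0.472 under 7%, −1.16 over 7% and −0.998 without AAV-miR-34b/c replicates 1 and 2, and −1.34 without them against vehicle. In AAV-GFP against vehicle it ran from −0.647 (without vehicle replicate 3) to −0.123 (without vehicle replicate 4), and was −0.138 without vehicle replicate 2. With a library left out it ran from −0.83 to −0.41 between the injected groups and from −1.29 to −0.75 in AAV-miR-34b/c against vehicle. Without AAV-miR-34b/c replicate 1 it passed between the injected groups and against vehicle (exact permutation p = 0.0373 and 0.0433). The AAV-miR-34b/c difference from vehicle also passed without vehicle replicate 3 (exact permutation p = 0.0303). The *Asgr1* to *Asgr2* log2 ratio differed by 0.29 between the injected groups and by 0.11 in AAV-miR-34b/c against vehicle under 7%, and by −0.53 and −1.14 without the 2 replicates; leaving out a library gave −0.80 to −0.42 (AAV-GFP against vehicle) and −0.97 to −0.59 (AAV-miR-34b/c against vehicle). The *Ahsg* to *Fetub* ratio differed by 0.0172 with close pairs summed, by 0.20 under 7% and by −0.32 to 0.0326 with a library left out in AAV-GFP against vehicle, and by 0.19 under 7%, −0.64 without the 2 replicates and −0.54 to −0.28 with a library left out in AAV-miR-34b/c against vehicle. The last passed without AAV-miR-34b/c replicate 1 (exact permutation p = 0.0281). Between the injected groups the ratio differed by −0.45 with close pairs summed and −0.0058 under 7%. There it ran from −0.44 to −0.0887 with a library left out. The cause of these changes was not tested. Each member had 198 or more counts in every library.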
